A study of Mus musculus with 11 samples.

Results

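The genes described here are the Runx transcription factors and their shared partner, Runx1, Runx2, Runx3 and Cbfb. The members were taken as the rows of the deposited expression table whose array annotation gives one of these symbols alone. Of the 4 named genes, 3 were found, each with 1 probe set, among 14835 genes that could be named. These were Runx1 (probe set 6847972, Entrez gene 12394, chromosome 16), Runx3 (probe set 6917713, Entrez gene 12399, chromosome 4) and Cbfb (probe set 6978810, Entrez gene 12400, chromosome 8). No annotated row carried the symbol Runx2 (Entrez gene 12393, chromosome 17), alone or among several, so it has no value here.

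RNA came from mouse T cells that were activated for 4 days under Th1 conditions and then sorted. From wild-type mice came CD4+CD8- cells (3 arrays, here wild-type CD4 cells) and, in 2 arrays, CD4-CD8+ cells (here CD8 cells). The Thpok-deficient cells came from Thpokf/f CD2cre mice, where Cre under CD2 control removes the floxed Thpok gene, and were sorted as CD4+CD8- (3 arrays) or CD4+CD8+ (3 arrays). All groups started from CD44lo spleen T cells and shared IL-12 at 10 ng/ml, IL-2 at 50 U/ml, antibodies to CD3 (1 µg/ml), to CD28 (3 µg/ml) and to IL-4 (10 µg/ml), and irradiated T-depleted C57BL/6 splenocytes as antigen-presenting cells. The sources used here give no ages for the mice. The replicates came from a pair of cell preparations and the labels do not tie arrays to them, so part of the spread between arrays may be technical. The groups are sorted bulk populations, so fewer cells expressing a gene and less RNA per cell cannot be told apart.

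Runx proteins bind DNA through their Runt domain, and CBFβ, the product of Cbfb, makes no base contacts itself but stabilises that binding. They can activate or repress, the latter partly through Groucho/TLE corepressors that bind their C-terminal end. In the thymus Runx proteins silence Cd4, and in CD8-lineage cells Runx3 represses both Cd4 and Zbtb7b, the gene for Thpok, while Thpok in turn antagonises Runx in CD4-lineage cells. In Th1 and CD8 effectors Runx3 acts with T-box factors at Ifng, and in Th1 cells it also acts at the Il4 silencer. Runx1 is present through most of T cell development, and Runx2 is best known as the regulator of bone-forming cells.

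Each Runx gene is read from a distal and a proximal promoter, and in mouse T cells the distal form of Runx3 is the one tied to the CD8 lineage. The single Runx3 row of the table cannot separate the forms, so the sequence before each start is shown. RefSeq promoter windows of build GRCm38.p6 (250 bases before to 50 after a start) were available for all 4 genes, with 6 windows in all. The longest run of letters shared by a window of each Runx gene, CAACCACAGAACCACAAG, holds the core Runx recognition letters ACCACA in tandem. It is printed here 5′ to 3′ on the gene's strand with the shared run in capitals.
Runx1, chr16:92826025-92826054, minus strand: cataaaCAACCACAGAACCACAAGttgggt
Runx2, chr17:44814583-44814612, minus strand: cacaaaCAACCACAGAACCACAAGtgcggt
Runx3, chr4:135120503-135120532, plus strand: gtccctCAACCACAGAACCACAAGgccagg
Counted from the annotated start, the shared run began at position -136 in Runx3, 27 in Runx1 and 22 in Runx2. Searched on both strands (the reverse being CTTGTGGTTCTGTGGTTG), it was present in 4 of 32851 promoter windows (0.0122%), the fourth being that of the predicted gene Gm16225. The core letters alone, ACCACA or TGTGGT, were in 16.8% of windows, and in the Runx3 window they occurred only inside the shared run. The other windows of Runx1 and Runx3 and the Cbfb window held neither. The 250 bases before each Runx3 start follow, with the shared run in capitals where it occurs.
Runx3 upstream start, chr4:135120395-135120644, plus strand: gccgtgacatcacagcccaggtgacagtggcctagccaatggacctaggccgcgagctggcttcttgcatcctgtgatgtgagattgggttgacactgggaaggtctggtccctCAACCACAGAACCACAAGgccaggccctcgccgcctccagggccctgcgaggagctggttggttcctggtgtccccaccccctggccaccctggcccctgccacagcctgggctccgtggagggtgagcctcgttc
Runx3 downstream start, chr4:135152295-135152544, plus strand: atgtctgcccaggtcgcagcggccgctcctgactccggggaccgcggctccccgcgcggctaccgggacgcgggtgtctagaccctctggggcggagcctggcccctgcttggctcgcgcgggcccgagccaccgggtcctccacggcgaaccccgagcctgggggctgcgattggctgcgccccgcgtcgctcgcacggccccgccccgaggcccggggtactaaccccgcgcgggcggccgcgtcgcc
The upstream stretch held 8 CG pairs with a G+C content of 65.2%, and the downstream stretch 38 CG pairs with 78.8%. These are descriptions of letters, and the array values do not measure use of either start.

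Before the members' values, the samples were checked on genes that define the groups. Zbtb7b read 8.43 ± 0.35 (SD, n = 3) in wild-type CD4 cells against 6.90 ± 0.23 and 6.69 ± 0.36 in the Thpok-deficient CD4+CD8- and CD4+CD8+ cells (n = 3 each) and 7.06 ± 0.24 in CD8 cells (n = 2). The sources used here do not say where its probes lie relative to the deleted part. Cd4 averaged 4.81 in CD8 cells and 9.64 to 10.28 in the CD4+ groups. Cd8a averaged 11.67 in CD8 cells, 9.91 in the Thpok-deficient CD4+CD8+ subset and 5.14 in wild-type CD4 cells. In the Thpok-deficient CD4+CD8- cells, sorted without surface CD8, it averaged 6.97 (6.41 to 7.50), above every wild-type CD4 array (at most 6.14). That Cd8a difference was 1.83 (limma adjusted p = 0.138) and passed on the 9 arrays described next (2.33, limma adjusted p = 0.0424), and Cd8b1 stood at 1.06 (limma adjusted p = 0.0593). The arrays numbered 3 of the wild-type CD4 and of the Thpok-deficient CD4+CD8+ group stood apart, with an SD over all probe sets of 1.54 and 1.70 against 1.94 to 2.06 in the other 9 arrays, and values without them are given as those of the 9 arrays. The mean of 8 measured T cell markers lay between 9.55 and 10.47 in every array. In CD8 against wild-type CD4 cells 5 of them were higher and 3 lower on the 11 arrays. On the 9 arrays Cd3d (-0.42) and Zap70 (-0.17) moved from higher to lower. Cd5 was among the lower, at 9.09 against 10.45 (-1.39 on the 9 arrays, limma adjusted p = 0.0096). Markers of B cells (7 measured) averaged 4.44 to 5.38 per array and myeloid markers (5 measured) 4.09 to 4.78. NK markers (3 measured) averaged 4.18 to 4.85 and erythroid markers (2 measured) 4.24 to 5.10. The highest value of each of these 4 lists, and the lowest T cell marker mean, were in wild-type CD4 replicate 3. As a gauge of background, the median of 809 probe sets of olfactory-type receptor genes (Olfr, Vmn and Taar symbols) was 4.79 in that array. This background median was 4.21 in the other array of narrow range and 3.26 to 3.68 in the rest. Of the 3 NK markers, 2 were lower in CD8 than in wild-type CD4 cells, and Fcgr3 averaged 5.04 against 6.32 (-1.60 on the 9 arrays, limma adjusted p = 0.0836). The B cell average hides Cd79b, part of the B cell receptor, which averaged 4.99 in wild-type CD4 cells, 5.52 and 6.33 in the Thpok-deficient CD4+CD8- and CD4+CD8+ cells and 7.69 in CD8 cells. Its CD8 difference was 2.71 (limma adjusted p = 0.0513) and passed on the 9 arrays (3.12, limma adjusted p = 0.0386), while the other 6 B cell markers stood from -0.88 to -0.10 there on all 11 arrays and from -0.73 to 0.18 on the 9. The part of these lists in the results below was not tested.

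Runx1 read highest in wild-type CD4 cells and lower on average in each of the other groups, by 0.60 to 0.70 on the log2 scale, which did not pass the threshold. The deposited log2 intensities were 8.07, 8.13 and 7.63 in the wild-type CD4 arrays (replicates 1 to 3), 6.77, 7.20 and 7.82 in the Thpok-deficient CD4+CD8- arrays, 7.81, 7.04 and 7.17 in the Thpok-deficient CD4+CD8+ arrays, and 6.79 and 7.69 in the CD8 arrays. Wild-type CD4 replicates 1 and 2 were above all other arrays, while replicate 3, one of the arrays of narrow range, lay below the highest array of each other group, so the groups overlapped. In order, the group means were 7.94 ± 0.27 in wild-type CD4 cells (SD, n = 3), 7.34 ± 0.41 in the Thpok-deficient CD4+CD8+ subset (n = 3), 7.26 ± 0.53 in the CD4+CD8- subset (n = 3) and 7.24 ± 0.64 in CD8 cells (n = 2). The last 3 groups differed from each other by at most 0.10, less than the SD within any of them.

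Against wild-type CD4 cells the Runx1 difference was -0.70 ± 0.37 (SE) in CD8 cells, with a 95% interval from -1.52 to 0.12 (limma adjusted p = 0.535). It was -0.68 ± 0.33 in Thpok-deficient CD4+CD8- cells (interval -1.41 to 0.05, limma adjusted p = 0.520). For the CD4+CD8+ subset it was -0.60 ± 0.33 (interval -1.33 to 0.13, limma adjusted p = 0.724). These comparisons share the wild-type CD4 arrays. Without the 2 arrays of narrow range the differences were -0.86, -0.83 and -0.67 (limma adjusted p = 0.397, 0.459 and 0.611). As background, 0.534%, 0.0840% and 0.204% of the 16673 probe sets passed an adjusted p under 0.05 in these comparisons, and a replicate block raised the last count from 34 to 86 probe sets. The CD8 value rested on 2 arrays, and it was -0.25 without CD8 replicate 1 and -1.15 without CD8 replicate 2.

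**Figure D1:**
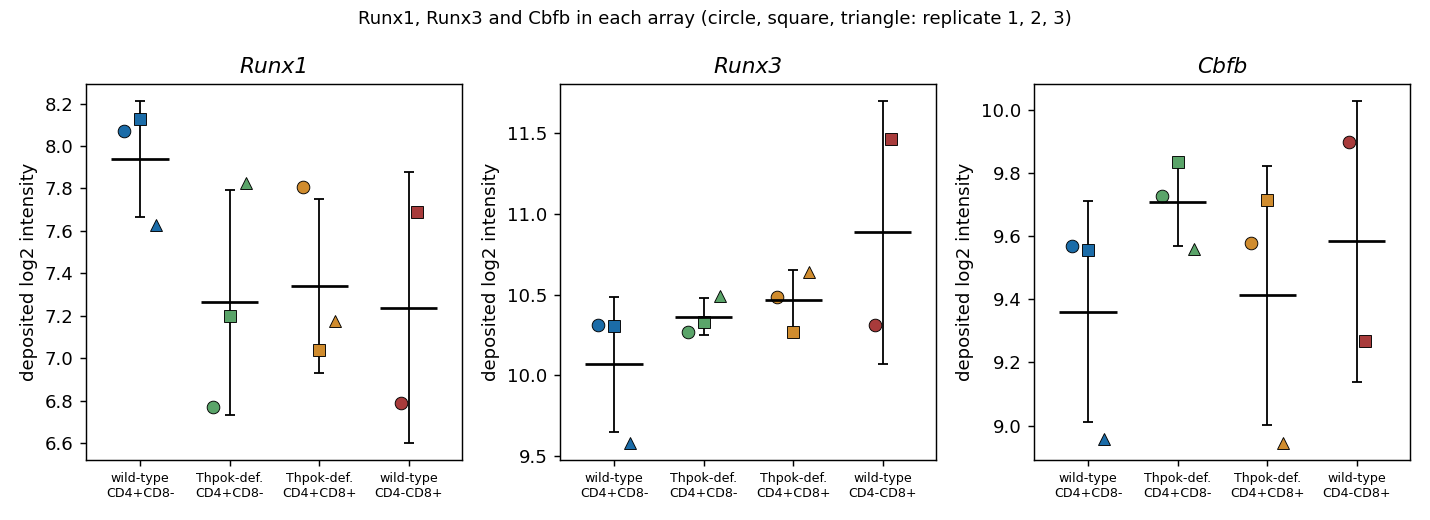
Deposited log2 intensity (y axis) of Runx1, Runx3 and Cbfb in the 4 groups (x axis). Points are single arrays, with the replicate number as the shape, and lines and bars are the group mean and SD. For Runx1, wild-type CD4 replicates 1 and 2 (8.07 and 8.13) lie above all other arrays, for Runx3 CD8 replicate 2 (11.46) stands highest, and for Cbfb the lowest points are the 2 arrays of narrow range (8.96 and 8.95).

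Runx3 had its highest mean in CD8 cells and its lowest in wild-type CD4 cells, and the difference rested on 1 CD8 array. The values were 10.31, 10.31 and 9.58 in the wild-type CD4 arrays (replicates 1 to 3), 10.27, 10.33 and 10.49 in the Thpok-deficient CD4+CD8- arrays, 10.49, 10.27 and 10.64 in the Thpok-deficient CD4+CD8+ arrays, and 10.31 and 11.46 in the CD8 arrays. CD8 replicate 2 was above every other array and CD8 replicate 1 was level with wild-type CD4 replicates 1 and 2, and every pair of groups overlapped on these values. In order, the means were 10.89 ± 0.82 in CD8 cells (SD, n = 2), 10.46 ± 0.19 in the Thpok-deficient CD4+CD8+ subset (n = 3), 10.36 ± 0.11 in the CD4+CD8- subset (n = 3) and 10.07 ± 0.42 in wild-type CD4 cells (n = 3).

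CD8 cells exceeded wild-type CD4 cells in Runx3 by 0.82 ± 0.33 (SE), with a 95% interval from 0.08 to 1.56. The unadjusted p was 0.0321 and the limma adjusted p 0.364, and 1914 of all probe sets (11.5%) had an unadjusted p under 0.05 in this comparison. Leaving out CD8 replicate 2 gave 0.24 and leaving out CD8 replicate 1 gave 1.40, while the 9 arrays without the narrow pair gave 0.58. Thpok-deficient CD4+CD8- cells differed from wild-type CD4 cells by 0.30 ± 0.30 (interval -0.36 to 0.95, limma adjusted p = 0.581) and the CD4+CD8+ cells by 0.40 ± 0.30 (interval -0.26 to 1.06, limma adjusted p = 0.951). Both values were close to 0 without the arrays of narrow range, at 0.05 and 0.07. Against CD8 cells the Thpok-deficient CD4+CD8+ cells read -0.42 ± 0.33 (interval -1.16 to 0.31) and the CD4+CD8- cells -0.52 ± 0.33 (interval -1.26 to 0.21). Without CD8 replicate 2 these 2 values were 0.15 and 0.05.

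Cbfb, the partner that all Runx proteins share, had group means within 0.35 of each other on the log2 scale. It read 9.57, 9.56 and 8.96 in the wild-type CD4 arrays (replicates 1 to 3), 9.73, 9.83 and 9.56 in the Thpok-deficient CD4+CD8- arrays, 9.58, 9.72 and 8.95 in the Thpok-deficient CD4+CD8+ arrays, and 9.90 and 9.27 in the CD8 arrays. The lowest values were those of the 2 arrays of narrow range, and all groups overlapped. The means in order were 9.71 ± 0.14 in Thpok-deficient CD4+CD8- cells (SD, n = 3), 9.58 ± 0.44 in CD8 cells (n = 2), 9.41 ± 0.41 in the Thpok-deficient CD4+CD8+ subset (n = 3) and 9.36 ± 0.35 in wild-type CD4 cells (n = 3). Against wild-type CD4 cells the differences were 0.35 ± 0.27 (SE) in Thpok-deficient CD4+CD8- cells, 0.22 ± 0.30 in CD8 cells and 0.05 ± 0.27 in Thpok-deficient CD4+CD8+ cells (limma adjusted p = 0.557, 0.711 and 1.000). Their 95% intervals ran from -0.24 to 0.93, from -0.43 to 0.88 and from -0.53 to 0.64. On the other 9 arrays the 3 differences were 0.14, 0.02 and 0.08.

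Between the Thpok-deficient subsets, which differ in surface CD8, the CD4+CD8+ cells differed from the CD4+CD8- cells by 0.08 ± 0.33 (SE) for Runx1, 0.10 ± 0.30 for Runx3 and -0.29 ± 0.27 for Cbfb. The 95% intervals ran from -0.65 to 0.81, from -0.56 to 0.76 and from -0.88 to 0.29. In that comparison limma called 0% of the probe sets, with 338 (2.03%) at an unadjusted p under 0.05. Against CD8 cells, in comparisons where 0.00600% (CD4+CD8+) and 0.0180% (CD4+CD8-) of probe sets passed, Runx1 differed by 0.10 ± 0.37 and 0.02 ± 0.37 and Cbfb by -0.17 ± 0.30 and 0.12 ± 0.30. Over all 6 comparisons, 0 of 18 member differences passed the limma threshold and 1 had an unadjusted p under 0.05, the Runx3 difference between CD8 and wild-type CD4 cells. Of all probe sets, 10.4% and 9.34% had such a p in the Thpok-deficient CD4+CD8- and CD4+CD8+ cells against wild-type CD4 cells, and 2.39% and 2.87% against CD8 cells. A p that misses the threshold does not show that the levels are alike, and the intervals give what these arrays allow.

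**Figure D2:**
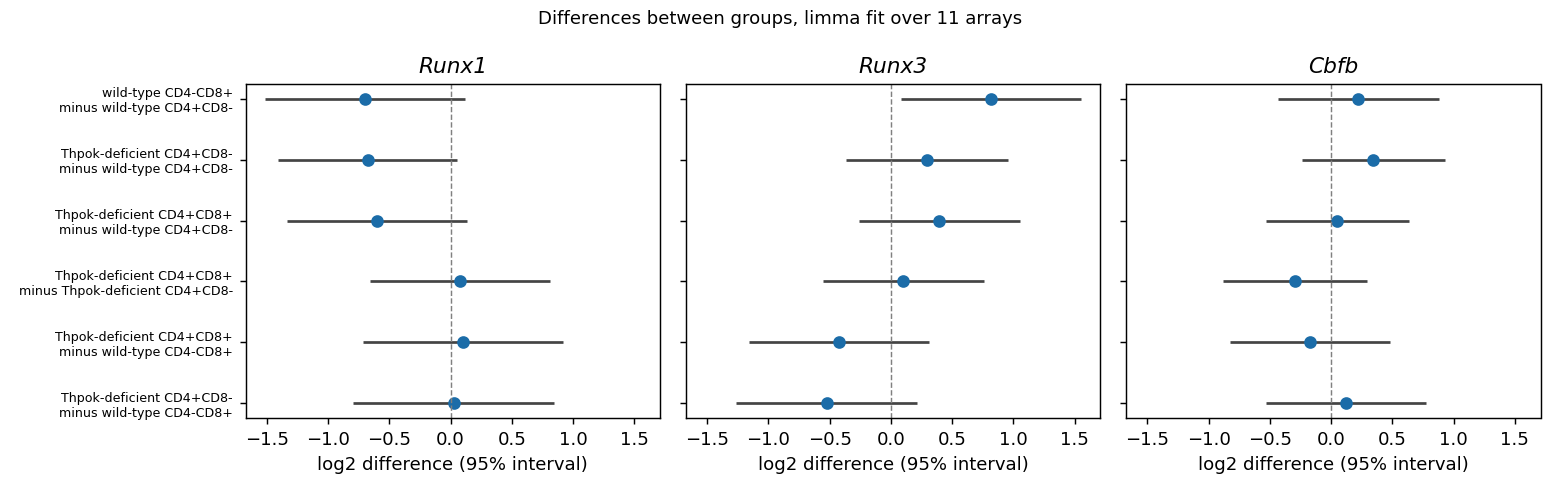
Log2 difference (x axis, point) with its 95% interval (line) for Runx1, Runx3 and Cbfb in each of the 6 comparisons (y axis), from the fit over 11 arrays. The interval for Runx3 in CD8 minus wild-type CD4 cells (0.08 to 1.56) is the one that leaves out 0, at a limma adjusted p of 0.364, and the Runx1 intervals against wild-type CD4 cells reach just past 0.

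The Runx genes were also set against their own array. The first quantity was Runx3 minus Runx1 in the same array on the log2 scale. Its size depends on the 2 probe sets and has no meaning alone, and a shift common to both genes cancels in it. A narrower signal range does not cancel, because the 2 probe sets read at different levels. It was 2.25, 2.18 and 1.95 in the wild-type CD4 arrays (replicates 1 to 3), 3.50, 3.13 and 2.67 in the Thpok-deficient CD4+CD8- arrays, 2.68, 3.23 and 3.47 in the Thpok-deficient CD4+CD8+ arrays, and 3.52 and 3.78 in the CD8 arrays. The wild-type CD4 arrays, the one of narrow range included, were lower than all 8 other arrays, and the CD8 arrays were higher than all 9 others. How many other pairs of genes order the arrays this way was not computed, so the order is a description only.

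The group means of this quantity were 2.13 ± 0.15 in wild-type CD4 cells (SD, n = 3), 3.10 ± 0.42 and 3.12 ± 0.40 in the Thpok-deficient CD4+CD8- and CD4+CD8+ cells (n = 3 each), and 3.65 ± 0.18 in CD8 cells (n = 2). The differences from wild-type CD4 cells were 0.97 and 1.00 for the Thpok-deficient subsets (two-sided exact permutation p = 0.10 each, the smallest that 3 against 3 arrays can give). For CD8 cells the difference was 1.52 (exact p = 0.20, the smallest that 2 against 3 arrays can give when both tails are counted). Adjusted over the 6 comparisons these were 0.24 each, and this permutation test cannot pass the threshold with so few arrays. The Thpok-deficient subsets differed from each other by 0.02 (exact p = 0.90) and lay below CD8 cells by 0.55 and 0.52 (exact p = 0.20 each). Without the 2 arrays of narrow range the differences from wild-type CD4 cells were 0.89, 0.74 and 1.44 (CD4+CD8-, CD4+CD8+ and CD8 cells). After a further quantile normalization, which gives all arrays 1 range, they were 1.04, 0.94 and 1.61 in the same order. On the 9 arrays the values of the Thpok-deficient subsets were mostly those of Runx1 itself (-0.83 and -0.67, beside 0.05 and 0.07 for Runx3). In CD8 cells both genes differed (-0.86 for Runx1 and 0.58 for Runx3).

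Runx1 was also taken as a percentile among all probe sets of its array, a value that a change of range leaves in place as long as the order of probe sets holds. It stood at 84.6, 84.4 and 86.6 in the wild-type CD4 arrays, between 64.8 and 80.5 in the Thpok-deficient CD4+CD8- arrays, between 70.6 and 80.9 in the CD4+CD8+ arrays, and at 65.0 and 78.7 in the CD8 arrays. All 8 other arrays were thus below the wild-type CD4 arrays. Of all probe sets, 4.07% had this pattern, and in the single comparisons 14.5% (CD8 cells), 10.3% (Thpok-deficient CD4+CD8- cells) and 7.80% (CD4+CD8+ cells) were lower in every array than in wild-type CD4 cells. The Runx1 pattern is therefore shared with 679 probe sets in all. On the deposited values Runx1 did not show it, and 1.82% of probe sets did. Runx3 percentiles were at most 98.49 in wild-type CD4 cells, at least 98.51 in Thpok-deficient CD4+CD8+ cells and 98.61 and 99.73 in CD8 cells, so these groups did not overlap, by a narrow margin, as in 6.93% and 12.6% of all probe sets. The Thpok-deficient CD4+CD8- cells overlapped with them, from 98.48 to 98.81, and Cbfb percentiles overlapped in every comparison.

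**Figure D3:**
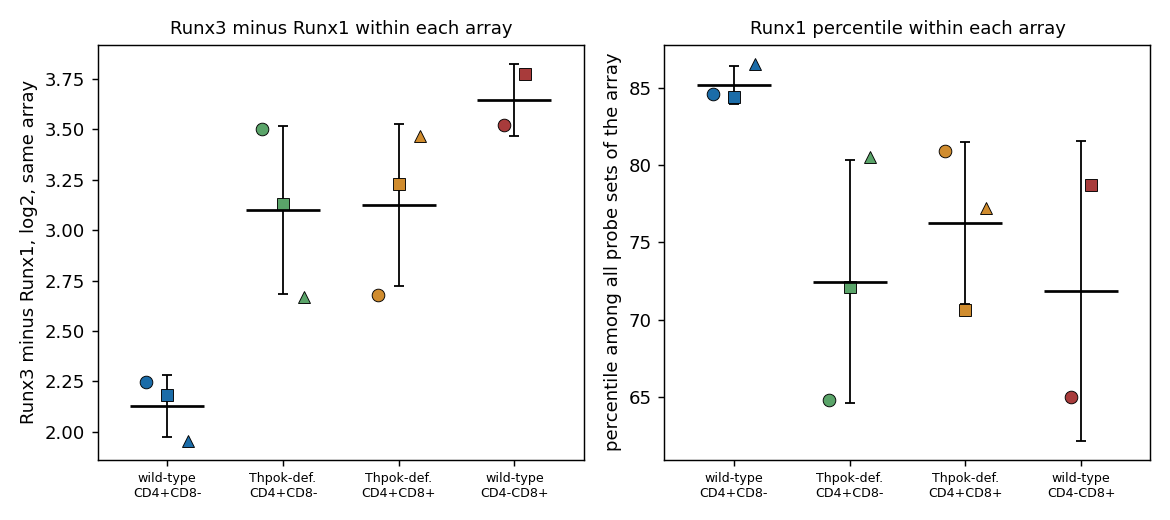
Left, Runx3 minus Runx1 in the same array (y axis, log2), and right, the percentile of Runx1 among all probe sets of its array (y axis), in the 4 groups (x axis). Points are arrays, with the replicate number as the shape, and lines and bars are mean and SD. The 3 wild-type CD4 arrays lie below the other 8 on the left (at most 2.25 against at least 2.67) and above them on the right (at least 84.4 against at most 80.9). Of all probe sets 4.07% had the order on the right, and for the left no share over gene pairs was computed.

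The corepressors through which Runx proteins silence genes were next compared. Of 15 listed genes 11 were measured, among them the Groucho-family genes Tle1 to Tle5, and 0 passed the limma threshold against wild-type CD4 cells in any group, with 0 at an unadjusted p under 0.05 as well. The median differences were 0.10 in CD8 cells, 0.06 in the Thpok-deficient CD4+CD8- subset and 0.14 in CD4+CD8+ cells, beside -0.14, -0.15 and 0.0016 for all probe sets. On the 9 arrays the list medians were 0.08, 0.02 and 0.06. The widest values were those of Hdac2, a histone deacetylase, at 0.99 ± 0.55 (SE) in CD8 cells and 1.09 ± 0.50 in Thpok-deficient CD4+CD8- cells, and these were 0.58 and 0.68 without the arrays of narrow range.

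Among coactivators, DNA-binding partners and modifying enzymes (11 of 15 measured), Cdk6 alone passed the threshold on the 11 arrays. Cdk6, a cell cycle kinase reported to bind Runx1 and hinder its activity in myeloid cells, read 7.71, 7.49 and 6.67 in the wild-type CD4 arrays (replicates 1 to 3) and 9.34 and 9.01 in the CD8 arrays. It was higher in CD8 cells by 1.88 ± 0.35 (SE, limma adjusted p = 0.0462), and by 1.57 without the arrays of narrow range, where the adjusted p was 0.0572. In Thpok-deficient CD4+CD8- and CD4+CD8+ cells it stood at 1.45 ± 0.31 and 1.27 ± 0.31 (limma adjusted p = 0.128 and 0.146). Ets1, an ETS factor that binds DNA together with Runx1, read 11.54, 11.74 and 11.34 in wild-type CD4 cells and 10.66 and 10.55 in CD8 cells. Its difference was -0.94 ± 0.23 (limma adjusted p = 0.105), and on the 9 arrays it was -1.04 ± 0.12 and passed (limma adjusted p = 0.0138). Smurf1, a ubiquitin ligase that acts on Runx proteins, also passed on the 9 arrays, at -0.77 ± 0.14 (limma adjusted p = 0.0457). Over all 11 arrays Smurf1 averaged 7.99 in wild-type CD4 cells and 7.44 in CD8 cells and did not pass. Hipk2, a kinase that phosphorylates Runx1, read 8.27, 8.55 and 7.94 in wild-type CD4 cells and at most 7.44 in the Thpok-deficient CD4+CD8- arrays. The Hipk2 difference was -1.02 ± 0.27 in these and -1.10 ± 0.27 in the CD4+CD8+ cells (limma adjusted p = 0.183 and 0.146), and -1.18 and -1.17 on the 9 arrays. The list medians were 0.11 in CD8 cells, 0.01 in the Thpok-deficient CD4+CD8- subset and -0.05 in CD4+CD8+ cells. They were -0.07, -0.17 and -0.31 on the 9 arrays, so the first 2 changed sign, beside -0.01, -0.03 and 0.05 for all probe sets. Of the 11 genes 5, 2 and 6 had an unadjusted p under 0.05, beside 11.5%, 10.4% and 9.34% of all probe sets.

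Genes with reported Runx-bound elements were compared next. Among the coreceptor and lineage genes (5 of 5 measured), Cd8a and Cd8b1 were higher and Cd4 lower in CD8 cells, and Cd8a and Cd8b1 were higher and Zbtb7b lower in Thpok-deficient CD4+CD8+ cells than in wild-type CD4 cells, where the coreceptor differences are set by the sort. On the 9 arrays Zbtb7b was lower in CD8 cells too (-1.57, limma adjusted p = 0.0213) and in Thpok-deficient CD4+CD8- cells (-1.73, limma adjusted p = 0.0327). Zbtb7b is the gene deleted in the Thpok-deficient cells, so its differences there cannot be told apart from the deletion. Itgae, the αE integrin of tissue T cells, needs Runx3 for its expression in CD8 cells. It stood at -0.04 ± 0.31 (SE) in CD8 cells and 0.02 ± 0.28 in the CD4+CD8+ cells, and at 0.24 and 0.06 on the 9 arrays. In Thpok-deficient CD4+CD8- cells Itgae averaged 3.96 against 4.32 in wild-type CD4 cells (-0.09 on the 9 arrays). Its group means, 3.96 to 4.34, were near the background medians of 3.26 to 4.79 per array, so a change could have been missed.

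Of 11 genes reported as raised by Runx in T or NK cells, 9 were measured, and Prf1, the gene of the pore-forming protein perforin, passed the threshold in each comparison with wild-type CD4 cells. Prf1 read 7.02, 7.07 and 6.49 in the wild-type CD4 arrays (replicates 1 to 3), 9.44, 8.67 and 9.12 in the Thpok-deficient CD4+CD8- arrays, 9.63, 9.12 and 9.25 in the CD4+CD8+ arrays, and 9.45 and 10.21 in the CD8 arrays. All 8 other arrays were above the wild-type CD4 arrays. The share of all probe sets with this order was not computed, so the order is a description only. The differences were 2.97 ± 0.31 (SE) in CD8 cells, 2.22 ± 0.28 in the Thpok-deficient CD4+CD8- subset and 2.47 ± 0.28 in CD4+CD8+ cells (limma adjusted p = 0.00323, 0.0291 and 0.00907). On the 9 arrays Prf1 passed in CD8 cells (2.79, limma adjusted p = 0.0138) and not in the Thpok-deficient subsets (2.04 and 2.33, limma adjusted p = 0.0564 and 0.0589). The list medians were 1.19, 0.55 and 0.55, and 0.66, 0.42 and 0.37 on the 9 arrays. Of the 9 genes 6, 4 and 3 had an unadjusted p under 0.05, beside 11.5%, 10.4% and 9.34% of all probe sets. On the 11 arrays 6, 8 and 6 of the 9 differences were positive. Gzmb averaged 8.30 (4.83 to 10.68) in wild-type CD4 cells and 11.93, 11.83 and 11.85 in CD8, Thpok-deficient CD4+CD8- and CD4+CD8+ cells. In the same order Ifng averaged 9.33 against 11.02, 11.21 and 11.65, and Ccl5 6.76 against 8.65, 7.31 and 8.10. On the 9 arrays Gzmb differed by 1.89, 1.79 and 1.70, Ifng by 0.84, 1.03 and 1.43, and Ccl5 by 1.35, 0.0065 and 0.37. Gzmb, Ifng and Ccl5 did not pass. Prdm1, which encodes the effector regulator Blimp-1, stood at 1.19 ± 0.49 in CD8 cells and Csf2, the GM-CSF gene, at -1.35 ± 0.29 (limma adjusted p = 0.375 and 0.0759), and on the 9 arrays at 0.66 and -1.31. Of the 8 listed genes with a RefSeq promoter window, 4 held ACCACA or TGTGGT, namely Prf1, Gzmb, Il3 and Il7r, beside 16.8% of all windows. The letters were in 1 of 8 corepressor genes, 1 of 10 coactivator-list genes and 1 of 2 coreceptor and lineage genes. They were in 0 of 4 genes reported as repressed, 1 of 4 bone targets of Runx2 and 0 of 15 other lineage factors. Tbx21 did not hold them. These counts were not tested, and a match is no sign of binding.

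Of 6 genes reported as repressed by Runx, 5 were measured, and on the 11 arrays the difference was negative for all 5 against wild-type CD4 cells in each of the 3 other groups. On the 9 arrays Cxcr5, a chemokine receptor of follicular helper cells, was positive in all 3 (0.06, 0.05 and 0.16) and Il4, the Th2 cytokine gene, in Thpok-deficient CD4+CD8+ cells (0.09). Gata3, a factor of the CD4 and Th2 fates, was the 1 that passed, in CD8 cells. It read 9.56, 9.79 and 8.82 in the wild-type CD4 arrays (replicates 1 to 3) and 6.95 and 7.82 in the CD8 arrays, a difference of -2.00 ± 0.33 (SE, limma adjusted p = 0.0273), and -2.29 on the 9 arrays (limma adjusted p = 0.0138). In the Thpok-deficient CD4+CD8- and CD4+CD8+ cells it stood at -0.79 ± 0.29 and -0.85 ± 0.29 (-1.07 and -0.99 on the 9 arrays), which did not pass. Bcl6, the follicular helper regulator, stood at -0.85 ± 0.25, -0.33 ± 0.23 and -0.73 ± 0.23 in CD8, Thpok-deficient CD4+CD8- and CD4+CD8+ cells, and at -1.005, -0.49 and -0.77 on the 9 arrays. The list medians were -0.44, -0.44 and -0.14, beside -0.14, -0.15 and 0.0016 for all probe sets. On the 9 arrays they were -0.17, -0.43 and -0.15, beside -0.01, -0.03 and 0.05. In each comparison 2 of the 5 genes had an unadjusted p under 0.05, beside 11.5%, 10.4% and 9.34% of all probe sets. Il4, Cxcr5 and Il2 had group means from 3.68 to 4.56, near the background medians of 3.26 to 4.79 per array, so their sign carries little weight. Tbx21, the gene of the Th1 regulator T-bet with which Runx3 acts, stood at 0.02 ± 0.25, 0.44 ± 0.22 and 0.54 ± 0.22 (-0.06, 0.36 and 0.43 on the 9 arrays), and did not pass.

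**Figure D4:**
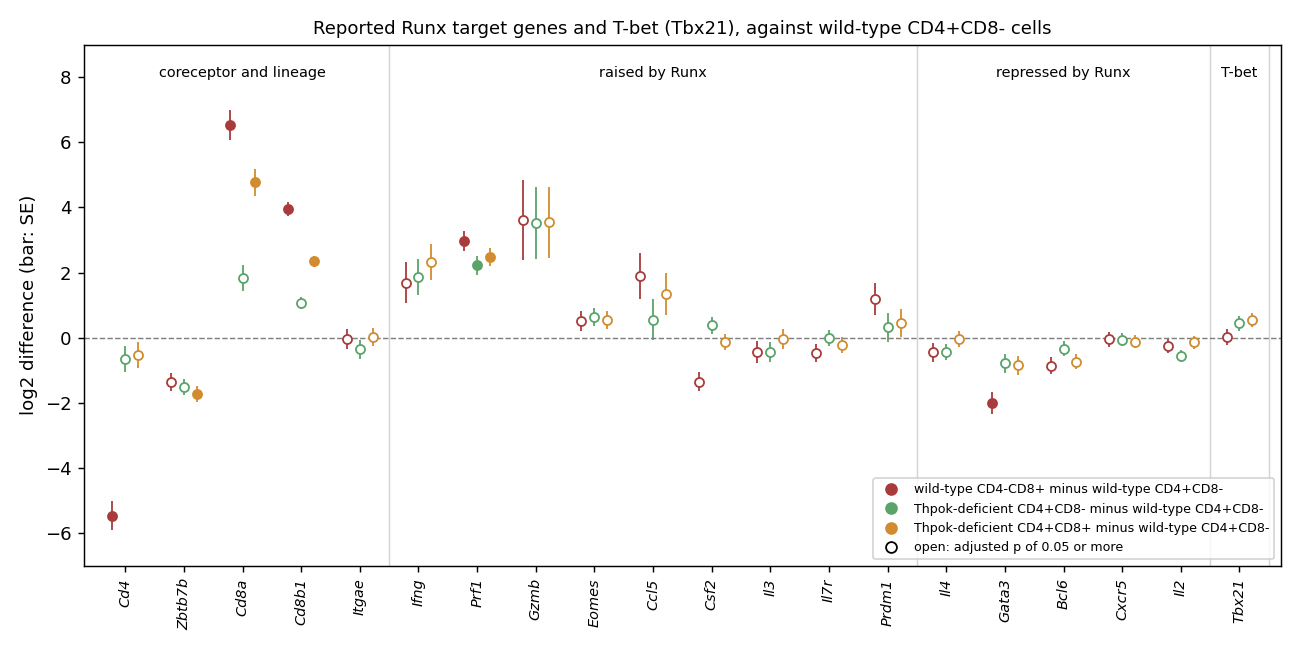
Log2 difference from wild-type CD4 cells (y axis, bars are SE) of genes reported as Runx targets and of Tbx21 (x axis), in CD8 cells and both Thpok-deficient subsets. Filled points passed a limma adjusted p under 0.05, which Prf1 did in all 3 comparisons (2.97, 2.22 and 2.47) and Gata3 in CD8 cells (-2.00).

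Targets that Runx2 controls in bone-forming cells, such as Sp7 and Ibsp, were also listed. Of 8 genes 6 were measured and 0 passed the limma threshold against wild-type CD4 cells, with 0 at an unadjusted p under 0.05. Their medians were -0.43 in CD8 cells, -0.33 in the Thpok-deficient CD4+CD8- subset and 0.02 in CD4+CD8+ cells, beside -0.14, -0.15 and 0.0016 for all probe sets, and they were -0.13, -0.11 and 0.05 on the 9 arrays. Group means of Ibsp (2.95 to 3.21), Sp7 (3.36 to 3.69) and Mmp13 (3.67 to 4.38) were at or near the background medians of 3.26 to 4.79 per array. A change in these could have been missed. Alpl, Col1a1 and Tnfsf11 read higher, with group means from 5.17 to 6.66. Among other lineage transcription factors (16 of 18 measured), Gata3 alone passed on the 11 arrays, in CD8 cells. The medians were -0.29, -0.15 and -0.17, and -0.33, -0.24 and -0.17 on the 9 arrays. Bach2, a repressor that restrains effector differentiation, stood at -1.46 ± 0.29 (SE) in CD8 cells (limma adjusted p = 0.0636) and -1.07 ± 0.26 in Thpok-deficient CD4+CD8+ cells (limma adjusted p = 0.146), and in CD8 cells it passed on the 9 arrays (-1.56, limma adjusted p = 0.0429). In these 8 lists, 0 genes other than the coreceptor genes passed in the comparisons between the Thpok-deficient subsets or of either subset with CD8 cells. Those comparisons called 0, 1 (CD4+CD8+ cells) and 3 (CD4+CD8- cells) of all 16673 probe sets. The coreceptor genes made up all of these calls, so the count of 0 says nothing particular to the lists.

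The genes whose values ran most like each member were ranked among 4590 genes with a mean log2 value of at least 7. Likeness was the smaller of Pearson's r over all 11 arrays and over the 9 arrays without the narrow pair, and it describes arrays that share groups, preparations and signal range. For Runx1 they were Pigz, an enzyme of GPI anchor synthesis (r = 0.90 over 11 arrays), Gramd1a, a sterol transporter (0.89), Lef1, a T cell factor of the Wnt pathway (0.88), Tet3, which oxidises 5-methylcytosine (0.87), and Selenop, a secreted selenoprotein (0.87). Pigz read 8.24 ± 0.37 (SD, n = 3) in wild-type CD4 cells, and its means in the other groups lay from 7.36 to 7.53. For Runx3 they were Zfp414 (0.96), the histone demethylase gene Phf2 (0.94), the glycogen synthase gene Gys1 (0.94), R3hdm2 (0.94) and Grhpr (0.94), a glyoxylate reductase. Zfp414 read 8.97 in its higher and 7.66 in its lower CD8 array, against at most 8.32 elsewhere. Phf2, Gys1, R3hdm2 and Grhpr likewise had their highest value in 1 CD8 array (for example Gys1 8.84 against 7.14 in the other). Phf2 read the same value, 8.69, in its lower CD8 array and in all Thpok-deficient CD4+CD8+ arrays. For Cbfb they were Cct8 (0.99), a subunit of the CCT chaperonin, Dnajc2 (0.98), a chaperone at the ribosome, Ahsa1 (0.96), an activator of Hsp90, Supt16 (0.98), a histone chaperone subunit, and Rbbp4 (0.95), a histone-binding protein. Cct8 had its highest group mean in Thpok-deficient CD4+CD8- cells (8.73 ± 0.36), as Cbfb did.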

How the data were processed

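Per the submitters' processing notes the arrays were processed with Partek and RMA and build mm9, without versions, and the deposited values are log2 intensities, 1 column for each of 11 arrays and 16673 probe sets. The series text and the labels' protocols name different array types, and the sources used here give neither the summary level nor the filters. Of the probe sets, 14970 carried 1 gene symbol, 1019 several and 684 none. Symbols were updated by Entrez identifier (14920 matched), and the probe set with the highest mean stood for a gene. Groups came from the labels.

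One limma 3.58.1 model (R 4.3.3) of group means covered all arrays and probe sets, and two-sided p-values were adjusted within each comparison across every probe set (Benjamini-Hochberg, threshold 0.05). The fit had 7 residual and 3.80 prior degrees of freedom and was tested on simulated data. Named genes are the members, Zbtb7b, Cd4, Cd8a and Cd8b1, up to 4 genes of a list in a comparison (those past the threshold first, then by size), and the 5 most alike genes of each member. The members and the 13 lists (89 of 114 entries measured) were chosen with earlier results of these data known. Prdm1, Csf2, Itgae, Smurf1, Cxcr5, Il4, Il2, Cd5, Fcgr3 and Cd79b were picked after their values were seen where they fall outside the 4. Permutation tests used scipy 1.17.1.

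The replicate numbers were checked as pairs after removing group means. Between the wild-type CD4 and the Thpok-deficient CD4+CD8+ group each of the 3 pairs correlated (0.43 to 0.72), both arrays numbered 3 being the narrow ones, and in no other comparison did all pairs exceed 0.1. The labels do not say that a number marks a preparation. For arrays, their number limits the precision. Alternatives were a further quantile normalization, median centring, the replicate block, the 9 arrays, array weights, a filter on the mean, other fits and leaving out each array.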

Additional observations from a re-analysis of the deposited data

How the results depend on the processing

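Of 243 alternative values of the member differences, 0 passed the limma threshold (lowest adjusted p = 0.0641, Runx1 in Thpok-deficient CD4+CD8- minus wild-type CD4 cells with array weights). The Runx1 difference from wild-type CD4 cells stayed negative in all of them, from -1.15 to -0.25 in CD8, -0.96 to -0.43 in Thpok-deficient CD4+CD8- and -0.88 to -0.45 in CD4+CD8+ cells. The Runx3 difference stayed positive in them (0.24 to 1.40, 0.05 to 0.42 and 0.02 to 0.52). Other values changed sign, none of them called. Quantile normalization gave -0.048 for Cbfb in Thpok-deficient CD4+CD8+ minus wild-type CD4 cells. Median centring gave -0.057 (Runx1) and -0.032 (Runx3) between the Thpok-deficient subsets and -0.013 for Runx1 in CD4+CD8+ minus CD8 cells. Array weights gave -0.057, -0.034 and -0.048 for the same 3. For Cbfb in CD4+CD8+ minus CD8 cells array weights gave 0.075 and the 9 arrays 0.063. For Runx3 minus Runx1 within an array, CD4+CD8+ minus CD4+CD8- cells, quantile normalization gave -0.10 and the 9 arrays -0.15.

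Leaving out single arrays gave ranges across 0 for Cbfb in CD8 minus wild-type CD4 cells (-0.092 to 0.54) and in Thpok-deficient CD4+CD8+ minus wild-type CD4 cells (-0.15 to 0.29). Against CD8 cells the ranges were -0.35 to 0.55 (Runx1), -0.9998 to 0.15 (Runx3) and -0.48 to 0.14 (Cbfb) for CD4+CD8+ cells, and -0.43 to 0.47, -1.10 to 0.052 and -0.19 to 0.44 for CD4+CD8- cells. Between the Thpok-deficient subsets they were -0.17 to 0.36 (Runx1) and -0.19 to 0.25 (Runx3 minus Runx1). A left-out CD8 array leaves 1, assumed to vary like the other groups. The cause of these changes was not tested.

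With the replicate block no member call changed (for example Runx1 in Thpok-deficient CD4+CD8+ minus wild-type CD4 cells, -0.60, adjusted p = 0.615). The count of probe sets called, 89, 14 and 34 for CD8, Thpok-deficient CD4+CD8- and CD4+CD8+ minus wild-type CD4 cells, became 116, 264 and 86 with the block, 240, 17 and 146 with quantile normalization, 52, 8 and 11 with median centring, 268, 39 and 28 on the 9 arrays, 144, 37 and 68 with the mean filter, 9, 1 and 4 with the 2 groups alone, and 435, 2078 and 1987 with array weights, which ran from 0.085 to 4.27. Without single arrays it ran from 8 to 129, 2 to 35 and 4 to 70. Limma's default estimate of array weights stopped before it converged, so the gene-by-gene estimate was used. No member had a second probe set, so averaging probe sets gave no value.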
